A study of Mus musculus with 24 samples.

Results

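The liver response to pregnenolone-16alpha-carbonitrile (PCN) was followed in mice deficient in the pregnane X receptor (PXR), the receptor that PCN activates. The 6 arrays labelled as PXR-deficient PCN livers, of 24 in all, made up this set, and they were chosen by their titles and not by any measured value. All mice were C57BL/6J males aged 9 to 12 weeks. The treated mice received 40 mg/kg of PCN into the peritoneum in corn oil with 5% DMSO, and the livers were taken 12 h later. Each array compared RNA of PCN-treated PXR-deficient livers, in the Cy5 channel, with 1 pool of PXR-deficient livers without PCN, in the Cy3 channel. The arrays set against them were 6 of livers deficient in both PXR and the constitutive androstane receptor (CAR), 6 deficient in CAR, and 6 wild type, all treated in the same way, each with a vehicle pool of its own genotype. A field of the labels calls the Cy3 pool untreated, and another calls it vehicle-injected. It is called the vehicle pool here, and an untreated pool would leave any effect of the injection in the ratio. The deficient mice lack the receptor in the labels' words, with no allele given, so the effect of the liver and that of other organs cannot be told apart. The array carried 284 mouse probes, of which 147 have 1 gene symbol in the platform annotation and 137 are unnamed here and are given by their probe ID. A log2 ratio is the normalized level after PCN over that of the vehicle pool, and a ratio of 1 is a 2-fold rise.

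PXR and CAR are nuclear receptors of the liver that respond to drugs, steroids and bile acids. With ligand, PXR pairs with the retinoid X receptor and binds DNA near genes of oxidation, conjugation and transport, of which the Cyp3a genes are the best known. CAR shares many of these targets, and both receptors are known to act on the genes of bile acid, cholesterol and glucose metabolism.

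Of the 284 mouse probes, 201 to 243 were above background on a PXR-deficient array, and 236 passed the filter on dim probes. The median correlation across probes between PXR-deficient arrays was 0.72, over 15 pairs that share the vehicle pool, and the median SD of a probe between arrays was 0.17, against 0.0855 between the spots of a probe on an array. Replicate 2 stood apart. Its correlation with the other arrays averaged 0.34, while that of the other 5 was 0.64 to 0.70. It was the highest or the lowest of the 6 at 167 of the 236 probes, against 45 to 88 probes for each of the others. After centring on the control probes its median log2 ratio was 1.15, against -0.21 to 0.26, and it had 44 saturated Cy3 spots. Values without it, or the calls of a list without it, are therefore given at many of the probes where it changes a call or moves a value by over 1.5-fold. The labels say that 6 replicates had their RNA pooled and name no channel, so part of the spread between arrays may be technical. A p-value reflects the spread of a probe within genotypes, shared over the 24 arrays, and not that of the 6 PXR-deficient arrays alone. With those 6 arrays alone 58 probes were called in place of 92 (limma, adjusted p under 0.05), 37 higher and 21 lower. How far the mice of a vehicle pool differ from each other enters none of the tests. The dyes were never swapped. A probe's own dye effect therefore remains in the ratio within a genotype and cancels in a difference between genotypes. In whole liver, fewer cells of a type and less RNA per cell cannot be told apart. Of the fixed hepatocyte markers Apoa1 and Cyp2e1 have named probes, which were above background in both channels on 6 of 6 arrays, with log2 ratios of -0.09 and 0.24 that did not pass the test. Their median was 0.07, against 0.34 under median centring and 0.46 under centring on the control probes, where 1 of them was called higher. Over all probes tested the median was -0.03, -0.06 and 0.07 in the same order. None of the fixed markers of leukocytes, endothelial, stellate, bile duct or red blood cells has a named probe here, so that the part of those cells in the results was not tested.

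The probe for the receptor's own gene, Nr1i2, gave a mean vehicle level of 7.83 ± 0.17 in PXR-deficient livers and 7.49 ± 0.22 in wild type livers (log2 intensity after normalization between arrays, SD, n = 6 each). Where this probe lies relative to the deleted part of the gene is not given in the sources used here, so that it does not check the labels. With PCN its log2 ratio was 0.08 ± 0.08 (SD, n = 6) in PXR-deficient livers and did not pass the test (limma, adjusted p = 0.418). The probe for Nr1i3, which encodes CAR, had log2 ratios with a lowest of 0.11, a median of 0.23 and a highest of 0.30 in PXR-deficient livers. CAR mRNA thus rose slightly on 6 of 6 arrays, by 0.21 ± 0.07 (SD, n = 6; limma, adjusted p = 0.000361), against 0.07 ± 0.06 in wild type livers (SD, n = 6), and the difference passed the test (0.15; limma, adjusted p = 0.0438). It was again 0.15 without replicate 2 but did not pass (limma, adjusted p = 0.0544). The rise itself lost its call under 4 of 22 alternatives, with values of 0.16 under median centring, 0.28 under centring on the control probes, 0.10 under that centring without replicate 2 and 0.32 with background subtraction (limma, adjusted p = 0.0967, 0.15, 0.463 and 0.065).

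The first question was what remained of the classical PCN response. PCN raised 5 probes by 2-fold or more in wild type livers (21.2% of all probes were called higher there and 16.5% lower), Cyp3a11, Cyp3a41a, Cyp3a13, Mbtps1 and the unnamed ST_Mm_051, and the 4 named ones did not pass the test in PXR-deficient livers. Averaged over the 5 probes, the log2 ratio was -0.06 on replicate 2 and between 0.14 and 0.34 on the other PXR-deficient arrays. Cyp3a11, a main drug-oxidizing P450 of mouse liver, had log2 ratios with a lowest of -0.14, a median of 0.34 and a highest of 0.62 in PXR-deficient livers. In wild type livers the lowest was 2.61, the median 2.90 and the highest 3.35. The genotypes did not overlap. The mean was 0.30 ± 0.28 in PXR-deficient and 2.94 ± 0.32 in wild type livers (SD, n = 6 each), and the difference of -2.64 had a 95% interval of -3.06 to -2.22 (limma, adjusted p = 1.98e-10). The PXR-deficient value itself did not pass the test (limma, adjusted p = 0.0964), though 5 of 6 arrays were above 0 and it passed under 4 of 22 alternatives, over which it lay between 0.24 and 0.65. Cyp3a41a, a second member of the family, had a mean of 0.16 ± 0.28 in PXR-deficient and 2.85 ± 0.15 in wild type livers (SD, n = 6 each; limma, adjusted p of the difference = 2.55e-12), and its PXR-deficient value passed under 3 alternatives. Cyp3a13 averaged -0.01 ± 0.08 and 1.23 ± 0.16 (limma, adjusted p of the difference = 1.19e-09), in the same order of genotypes. The Cyp3a genes resemble each other in sequence, and cross-hybridization between their probes was not tested. Mbtps1, the site-1 protease that activates sterol regulatory factors, averaged 0.09 ± 0.12 in PXR-deficient and 1.09 ± 0.24 in wild type livers (SD, n = 6 each; limma, adjusted p of the difference = 2.09e-07). Its PXR-deficient value without replicate 2 was 0.13 and did not pass (limma, adjusted p = 0.253). Slco1a4, an uptake transporter known as a PXR target, rose by less than 2-fold in wild type livers. It averaged -0.01 ± 0.13 in PXR-deficient and 0.75 ± 0.49 in wild type livers (SD, n = 6 each; limma, adjusted p of the difference = 0.00601), and was above background on 3 of 6 PXR-deficient arrays.

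The unnamed probe ST_Mm_051 was the exception among the 5. Its log2 ratios in PXR-deficient livers had a lowest of 0.36, a median of 0.50 and a highest of 0.65, and in wild type livers a lowest of 1.36, a median of 1.79 and a highest of 1.94. It rose on 6 of 6 PXR-deficient arrays 1.41-fold, by 0.50 ± 0.10 (SD, n = 6; limma, adjusted p = 1.71e-05), and kept this call under each of the 22 alternatives tried. The wild type rise was 1.73 ± 0.23 (SD, n = 6), larger by 1.23 on the log2 scale (limma, adjusted p = 1.19e-09). In livers deficient in both receptors the same probe averaged -0.24 ± 0.17, and in CAR-deficient livers 1.47 ± 0.22 (SD, n = 6 each). Since their wild type rise picked these 5 probes, that choice fixes part of their difference from wild type livers.

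**Figure D1:**
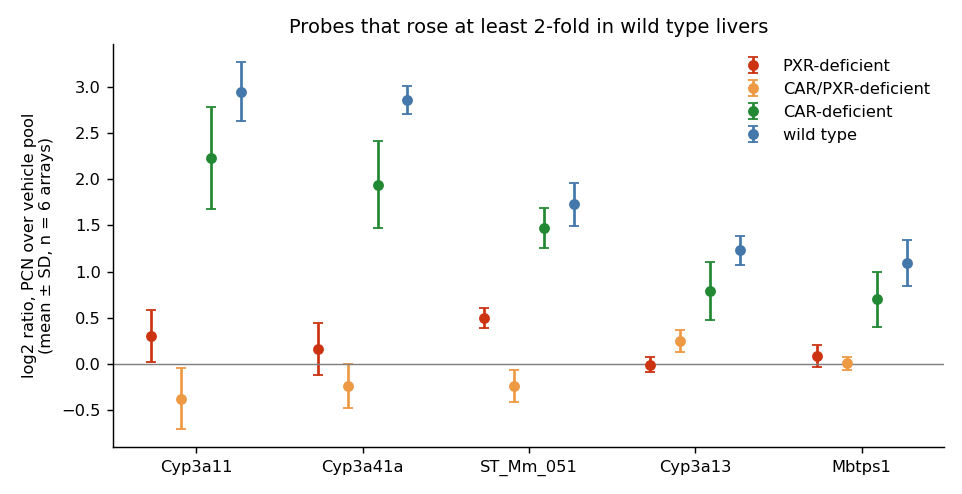
Log2 ratio of PCN over vehicle pool (vertical axis, points and bars are mean ± SD of 6 arrays) for the 5 probes that PCN raised by 2-fold or more in wild type livers, in PXR-deficient (red), CAR/PXR-deficient (orange), CAR-deficient (green) and wild type livers (blue). PXR-deficient means lie between -0.01 and 0.50, against 1.09 to 2.94 in wild type livers.

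Promoter sequences are shown for a pair of genes whose wild type rise was not called in PXR-deficient livers, Cyp3a11 and Cyp3a41a, and for the genes with the largest named rises in PXR-deficient livers, Slco1b2 and G6pc (described next). Each is 300 bases, from 250 before to 50 after the gene's start, 5′ to 3′ on the gene's strand, from RefSeq on GRCm38.p6. Capitals mark the hexamers AGGTCA and AGTTCA on either strand (on the other strand they read TGACCT and TGAACT), the half-sites that nuclear receptors such as PXR bind in pairs. Cyp3a11 is at chr5:145879805-145880104 (minus strand), Cyp3a41a at chr5:145720087-145720386 (minus strand), Slco1b2 at chr6:141629268-141629567 (plus strand) and G6pc at chr11:101367466-101367765 (plus strand).
Cyp3a11: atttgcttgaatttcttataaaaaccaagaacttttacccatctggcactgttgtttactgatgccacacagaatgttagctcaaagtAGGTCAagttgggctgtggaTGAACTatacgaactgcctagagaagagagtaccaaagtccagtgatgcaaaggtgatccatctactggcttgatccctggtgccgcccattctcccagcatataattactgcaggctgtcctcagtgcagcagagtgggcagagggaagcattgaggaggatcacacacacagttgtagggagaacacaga
Cyp3a41a: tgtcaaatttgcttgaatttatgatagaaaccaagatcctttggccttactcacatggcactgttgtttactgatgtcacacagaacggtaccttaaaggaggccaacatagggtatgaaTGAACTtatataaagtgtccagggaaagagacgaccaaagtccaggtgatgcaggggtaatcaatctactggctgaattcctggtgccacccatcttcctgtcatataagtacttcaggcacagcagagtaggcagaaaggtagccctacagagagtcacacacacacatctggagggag
Slco1b2: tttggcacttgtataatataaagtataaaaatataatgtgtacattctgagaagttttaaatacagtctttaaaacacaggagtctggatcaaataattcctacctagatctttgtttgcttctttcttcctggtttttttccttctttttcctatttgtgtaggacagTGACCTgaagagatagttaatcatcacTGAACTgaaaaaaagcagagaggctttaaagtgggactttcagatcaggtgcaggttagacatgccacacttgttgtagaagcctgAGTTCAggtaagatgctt
G6pc: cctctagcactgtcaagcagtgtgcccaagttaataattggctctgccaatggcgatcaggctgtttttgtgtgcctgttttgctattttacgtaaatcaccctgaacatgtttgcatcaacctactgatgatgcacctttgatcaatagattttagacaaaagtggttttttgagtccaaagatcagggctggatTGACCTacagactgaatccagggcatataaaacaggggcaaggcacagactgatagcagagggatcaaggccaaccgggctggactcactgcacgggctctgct
Of 32851 promoters of this length, 16.3% hold AGGTCA, 14.0% hold AGTTCA and 27.7% hold at least 1 of them. Cyp3a11 holds AGGTCA at bases 89 to 94 and AGTTCA on the other strand at bases 109 to 114, counted from the printed 5′ end. Cyp3a41a holds AGTTCA on the other strand at bases 121 to 126. Slco1b2 holds AGGTCA on the other strand at bases 170 to 175, and AGTTCA on the other strand at bases 197 to 202 and on the gene's strand at 283 to 288. G6pc holds AGGTCA on the other strand at bases 197 to 202. Hexamers are thus found in the windows of genes that rose without PXR and of genes that did not, and a match in letters is not a binding site.

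Other probes also differed between the PCN-treated PXR-deficient livers and their vehicle pool, most of them by little. A probe's own dye effect and the use of 1 pool remain in these ratios. Of the 236 probes 92 changed (39.0%; limma, adjusted p under 0.05), 46 higher (19.5%) with a median log2 ratio of 0.31 and 46 lower (19.5%) with a median of -0.24. The median over all probes tested was -0.03. Of the 92, 56 changed by less than 1.25-fold, 25 by 1.25-fold to 1.5-fold and 11 by more, of which 3 were higher and 8 lower. At 85 of the 236 probes (36.0%) the sign was the same on 6 of 6 arrays, and 74 of these were among the 92. Without replicate 2 there were 65 calls (27.5%), 33 higher (14.0%) and 32 lower (13.6%), of which 59 were shared with the 92 in the same direction. Replicate 2 was the lowest array at 28 of the 46 falls and the highest at 26 of the 46 rises, against 37.3% and 33.5% of all probes tested. The rises kept their call without it at 33 of 46 probes and the falls at 26 of 46. Centring on the control probes in place of the fit to each array's intensity trend gave 42 calls, 38 higher and 4 lower, and median centring gave 56, 37 higher and 19 lower. The 31 control probes themselves had mean log2 ratios between -3.37 and 2.44 on the PXR-deficient arrays after the fit to the intensity trend. Of these, 2 were never above background there. The centring used the median over their unflagged spots, and how well that median anchors an array was not tested.

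**Figure D2:**
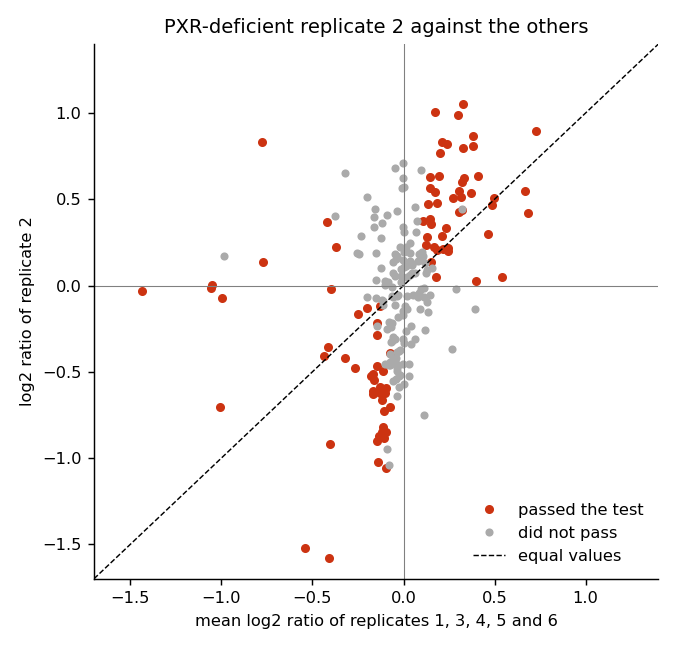
Log2 ratio of replicate 2 (vertical axis) against the mean of the other 5 PXR-deficient arrays (horizontal axis) for the 236 probes tested, with the 92 that passed the test in red, the others in grey and equal values as a dashed line. The correlation across probes is 0.38, and many probes that lie near 0 on the other arrays lie well below or above 0 on replicate 2.

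The rises were led by a transporter and a glucose enzyme. Slco1b2, the hepatocyte transporter that takes up bile acids and drugs from the blood, had log2 ratios with a lowest of 0.51, a median of 0.80 and a highest of 0.99 in PXR-deficient livers. In wild type livers it ran between -0.41 and 0.27, and the genotypes did not overlap. The mean rise was 1.69-fold, or 0.76 ± 0.21 on the log2 scale (SD, n = 6; limma, adjusted p = 1.95e-07), against -0.09 ± 0.29 in wild type livers (SD, n = 6). G6pc, the catalytic subunit that releases free glucose from the liver, had a lowest log2 ratio of 0.50, a median of 0.60 and a highest of 0.89 in PXR-deficient livers. Wild type livers ran between -1.02 and 0.44 and lay below the PXR-deficient arrays. The mean rise was 1.57-fold, or 0.65 ± 0.16 on the log2 scale (SD, n = 6; limma, adjusted p = 0.0014), against -0.22 ± 0.54 in wild type livers (SD, n = 6). Without replicate 2 the values were 0.73 for Slco1b2 and 0.67 for G6pc, and both passed the test. The unnamed probe ST_Mm_137 was the third of the rises to reach 1.5-fold, at 0.64 ± 0.18 (SD, n = 6; limma, adjusted p = 1.17e-07), with a lowest of 0.42 and a highest of 0.96.

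Insig1, which holds sterol regulatory factors in the endoplasmic reticulum when sterols are plentiful, had a lowest log2 ratio of 0.06, a median of 0.41 and a highest of 0.87 in PXR-deficient livers. It was above 0 on 6 of 6 arrays but spread widely, at 0.46 ± 0.34 (SD, n = 6; limma, adjusted p = 0.00106), against -0.22 ± 0.17 in wild type livers (SD, n = 6). Cyp2a12, a steroid-hydroxylating P450, rose by 0.46 ± 0.22 (SD, n = 6; limma, adjusted p = 3.17e-05), where replicate 2 was lowest at 0.05 and the other 5 arrays lay between 0.40 and 0.71. Abcc2, the canalicular pump for glutathione and glucuronide conjugates, was above 0 on 6 of 6 arrays, at 0.40 ± 0.10 (SD, n = 6; limma, adjusted p = 2.90e-06). The unnamed probes ST_Mm_295, ST_Mm_222, ST_Mm_314 and ST_Mm_220 complete the 10 largest rises, with means of 0.48, 0.45, 0.45 and 0.45. Of these, replicate 2 was highest at ST_Mm_314 (1.05), ST_Mm_222 (0.81) and ST_Mm_220 (0.63). Insig1, ST_Mm_314 and ST_Mm_222 each lost the call when arrays were centred on the control probes and replicate 2 was left out (limma, adjusted p = 0.0749, 0.106 and 0.0544).

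The falls held transporters of cholesterol, bile salts and drugs. Abca1, which exports cholesterol from the cell, had log2 ratios with a lowest of -1.28, a median of -1.01 and a highest of -0.63 in PXR-deficient livers. In wild type livers the lowest was -0.78, the median -0.26 and the highest -0.04, so that the ranges overlapped at their ends. Abca1 fell by 0.96 ± 0.26 (SD, n = 6), to 0.515 of the vehicle level (limma, adjusted p = 4.02e-10), against -0.31 ± 0.25 in wild type livers (SD, n = 6), a difference of -0.64 (limma, adjusted p = 5.53e-05). Abcb11, the bile salt export pump, had a lowest log2 ratio of -1.52, a median of -0.66 and a highest of -0.26 in PXR-deficient livers. Abcb1a, a P-glycoprotein that pumps drugs out of cells, had a lowest of -1.58, a median of -0.43 and a highest of -0.25. In both, replicate 2 was the lowest array. Their means were -0.71 ± 0.44 and -0.61 ± 0.51 (SD, n = 6; limma, adjusted p = 0.000116 and 0.000147), and without replicate 2 they were -0.54 and -0.41, with both calls kept. The differences from wild type livers, -0.46 and -0.38 (limma, adjusted p = 0.0339 and 0.0438), came to -0.29 and -0.19 without replicate 2 and did not pass the test (limma, adjusted p = 0.126 and 0.137). Ebp, a sterol isomerase of cholesterol synthesis, fell by 0.49 ± 0.22 (SD, n = 6; limma, adjusted p = 1.04e-05), where replicate 2 was at -0.92 and the other 5 arrays lay between -0.52 and -0.35. Its difference from wild type livers was -0.28 (limma, adjusted p = 0.0196), and without replicate 2 it was -0.20 and did not pass (limma, adjusted p = 0.0652).

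The other large falls had the opposite dependence on replicate 2. Fgb, the fibrinogen beta chain that the liver secretes for clotting and raises in the acute phase, had a lowest log2 ratio of -1.30, a median of -0.98 and a highest of 0.00 in PXR-deficient livers, and the highest was replicate 2. Its mean was -0.87 ± 0.50 (SD, n = 6; limma, adjusted p = 1.71e-05), or -1.05 without replicate 2. Wild type livers averaged -0.64 ± 0.13 (SD, n = 6), and the difference of -0.23 did not pass the test (limma, adjusted p = 0.306). It was -0.40 and passed without replicate 2 (limma, adjusted p = 0.0409). The unnamed probe ST_Mm_280 had the largest fall, at -1.20 ± 0.73 (SD, n = 6; limma, adjusted p = 0.00225), and was the 1 probe to pass 2-fold. Its lowest array was at -2.15 and replicate 2 at -0.03. The unnamed probes ST_Mm_292, ST_Mm_279, ST_Mm_291 and ST_Mm_281 averaged -0.88, -0.84, -0.62 and -0.51, and replicate 2 was the highest array at each of them, with values of -0.02, -0.07, 0.13 and 0.83. At ST_Mm_281 the SD of 0.81 exceeded the mean, which was -0.78 without replicate 2. ST_Mm_279 and ST_Mm_281 lost the call under 10 and 11 of 22 alternatives, and Fgb, ST_Mm_280, ST_Mm_291 and ST_Mm_292 lost it under centring on the control probes. With replicate 2 left out of that centring, Fgb, ST_Mm_280, ST_Mm_291 and ST_Mm_292 kept the call (limma, adjusted p = 0.00072, 0.00749, 0.0215 and 0.00187). ST_Mm_291 also lost it under median centring and with the processed values that the authors deposited (limma, adjusted p = 0.154 and 0.0599).

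**Figure D3:**
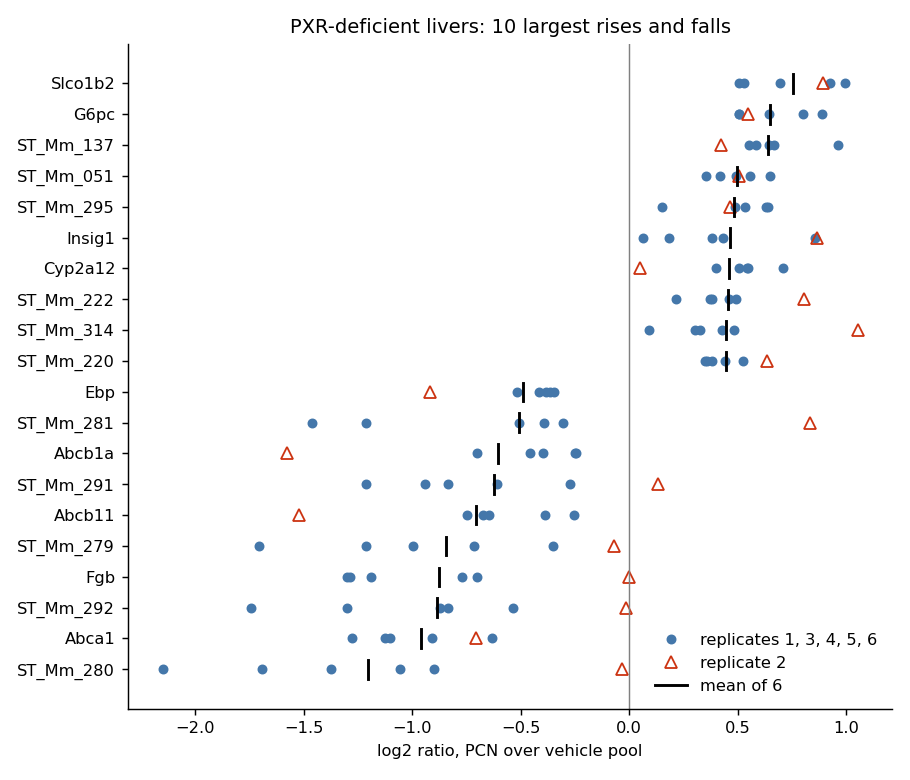
Log2 ratio of PCN over vehicle pool on each PXR-deficient array (horizontal axis) for the 10 largest rises and 10 largest falls that passed the test, with replicate 2 as open triangles and the mean of 6 as a bar. Replicate 2 lies with the other arrays for Slco1b2, G6pc and Abca1, below them for Abcb11, Abcb1a and Ebp, and above them for Fgb and ST_Mm_279 to ST_Mm_281.

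Over the 64 probes described, 55 passed the test, and 15 of these kept the call and the direction under each alternative tried. The 15 were Slco1b2, G6pc, Abcc2, Cyp2a12, Cyp2f2, Cyp2j5, Cyp2d22, ST_Mm_137, ST_Mm_051, ST_Mm_295 and ST_Mm_220 among the rises, and Abca1, Abcb11, Abcb1a and Ebp among the falls. The other 40 lost the call under at least 1 alternative, and none of the 55 changed direction.

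The gene lists were read against the share of all probes called, 19.5% in each direction. Of the PXR and CAR targets 12 of 13 named probes were tested, and 2 were higher (Abcc2 and Nr1i3), 1 lower (Abcb1a) and 9 not called, with a median log2 ratio of 0.10. In wild type livers 6 of the same 12 were higher, against 21.2% of all probes tested there. The list holds Cyp3a11, Cyp3a13 and Cyp3a41a, which were picked above for their wild type rise. The ratio in PXR-deficient livers ran between -0.61 at Abcb1a and 0.40 at Abcc2. Among the probes not called were Alas1, the first enzyme of heme synthesis, at 0.11, Abcc3, a basolateral export pump, at 0.11, and Abcb1b at -0.16.

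Of the cholesterol synthesis and uptake genes 13 probes were tested, and 2 were higher and 4 lower in PXR-deficient livers. Those higher were Insig1 and Fdft1, the squalene synthase, at 0.27 ± 0.25 (SD, n = 6). Those lower were Ebp, Lss and Mvk, enzymes of the pathway, at -0.49, -0.23 and -0.20, and Scarb1, the receptor for high-density lipoprotein, at -0.13. Without replicate 2 the list had 1 higher (Insig1) and 2 lower (Ebp and Mvk). Fdft1, Lss and Scarb1 were then at 0.20, -0.11 and -0.13 and did not pass (limma, adjusted p = 0.137, 0.127 and 0.0764). The list's median was -0.12 with replicate 2 and -0.04 without it, and it was 0.0047 after centring on the control probes. That centring moved the median over all probes tested from -0.03 to 0.07.

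Of the bile acid synthesis and transport genes 13 probes were tested, and 2 were higher and 5 lower. Cyp8b1 and Cyp27a1, enzymes of bile acid synthesis, rose by 0.19 ± 0.08 and 0.19 ± 0.13 (SD, n = 6; limma, adjusted p = 0.00842 and 0.0105). Without replicate 2 Cyp27a1 was at 0.15 and did not pass (limma, adjusted p = 0.0549). Cyp7a1, the rate-limiting enzyme of bile acid synthesis, had log2 ratios with a lowest of -0.59, a median of -0.14 and a highest of -0.06 in PXR-deficient livers. Its mean of -0.20 ± 0.19 (SD, n = 6) passed the test (limma, adjusted p = 0.0163), but without replicate 2, its lowest array, the value of -0.13 did not pass the test (limma, adjusted p = 0.127). The other falls were Abca1, Abcb11, Nr5a2 and Cyp46a1. Without replicate 2 the list had 1 higher (Cyp8b1) and 2 lower (Abca1 and Abcb11), and the median was -0.04 in place of -0.10. After centring on the control probes the median was 0.0041, against 0.07 over all probes tested.

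The groups that follow, other than the clock genes, were put together after the values were seen, and are given as a description. The clock genes and the lists above were themselves chosen with earlier results of these data known. Among 27 P450 and related probes, 6 were higher and 8 lower. Under centring on the control probes 10 were higher and 0 lower, and under median centring 7 were higher and 3 lower. Over all 236 probes these counts were 38 higher and 4 lower, and 37 higher and 19 lower. The rises lay in the Cyp2 family and in bile acid synthesis. Cyp2f2, a P450 known for activating naphthalene, rose by 0.44 ± 0.18, Cyp2j5, an epoxygenase of arachidonic acid, by 0.33 ± 0.12, and Cyp2d22 by 0.31 ± 0.20 (SD, n = 6; limma, adjusted p = 0.000133, 8.16e-05 and 0.00125). Cyp2j5 and Cyp2d22 fell in wild type livers, by 0.29 and 0.18, which left differences of 0.62 and 0.49 (limma, adjusted p = 1.65e-06 and 0.000589). Of the falls, Cyp17a1, an enzyme of steroid synthesis, was at -0.30 ± 0.16 (SD, n = 6; limma, adjusted p = 7.15e-05). The others were Cyp2g1, Cyp2b13, Cyp1a1, Cyp46a1, Cyp7a1, Tbxas1 and Ptgis, between -0.26 and -0.20. Without replicate 2, 5 were higher and 3 lower, the last being Cyp17a1, Cyp2g1 and Cyp2b13.

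Among 34 probes for nuclear receptors, 2 were higher and 8 lower, with a median of -0.10. The rises were those of Nr1i3, described above, and Ppara. Ppara, the fatty acid receptor that is active in fasting, was at 0.17 ± 0.11 (SD, n = 6) and passed the test (limma, adjusted p = 0.00452). The falls of Nr5a1, Thrb, Nr2e1, Nr5a2, Rxrb, Nr2c1, Thra and Vdr lay between -0.29 and -0.18, and replicate 2 was lowest at each, between -1.02 and -0.51. Nr5a1, for example, was at -1.02 on replicate 2 and between -0.23 and -0.02 on the other 5 arrays. Without replicate 2 the falls came down to Rxrb, a partner of PXR and CAR, at -0.17 (limma, adjusted p = 0.00673), while both rises kept their call. Under median centring and under centring on the control probes the 10 calls of the list were lost, and their direction was kept at 10 of 10. The median of the list was -0.38 on replicate 2 and between -0.09 and -0.01 on the other arrays.

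Among 13 membrane transporters, 2 were higher (Slco1b2 and Abcc2) and 3 lower (Abca1, Abcb11 and Abcb1a), and the same counts were found without replicate 2 and under both centrings. Among 9 probes for glucose metabolism, 3 were higher and 1 lower. Beside G6pc, Ppp1r3c, a subunit that directs phosphatase to glycogen, rose by 0.35 ± 0.14 and Pdhb, a pyruvate dehydrogenase subunit, by 0.23 ± 0.13 (SD, n = 6; limma, adjusted p = 0.00571 and 0.00926). Without replicate 2 Pdhb was at 0.19 and did not pass the test (limma, adjusted p = 0.0573). Ppp1r3c fell in wild type livers, at -0.37 ± 0.34 (SD, n = 6), a difference of 0.72 (limma, adjusted p = 0.000257). Ppargc1a, a coactivator of glucose production, has a pair of probes. ST_Mm_131 fell by 0.27 ± 0.27 (SD, n = 6; limma, adjusted p = 0.0113), while ST_Mm_320, at -0.25 ± 0.40 (SD, n = 6), did not pass the test (limma, adjusted p = 0.0838). Replicate 2 was above 0 at both, and without it they were at -0.37 and -0.38 and both passed, which left 2 probes higher and 2 lower in the group. Under centring on the control probes 1 was higher and 0 lower, beside 38 higher and 4 lower over all probes tested.

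Of the clock genes 4 of 7 named probes passed the filter, Rora, Cry1, Per2 and Nr1d2, and 0 passed the test with limma, with 0 at an unadjusted p under 0.05. Of the 3 acute phase and complement genes Fgb was lower, while Crp and C4bp, at -0.14 and -0.16, did not pass the test. Without replicate 2 C4bp was at -0.32 and passed (limma, adjusted p = 0.0157), and the median of the 3 was -0.32 in place of -0.16. Among probes for reference genes, both Actb probes fell, at -0.34 and -0.29, Ppia rose by 0.15, and the Gapdh probes disagreed, with ST_Mm_154 higher by 0.15 and ST_Mm_155 at -0.10 without a call. Without replicate 2 Ppia was at 0.11 and did not pass (limma, adjusted p = 0.176).

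**Figure D4:**
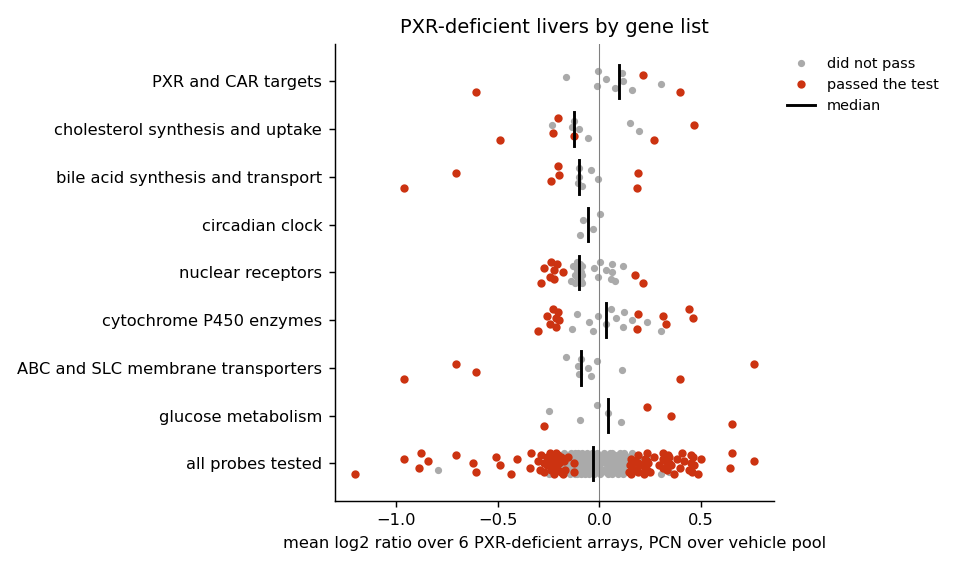
Mean log2 ratio over the 6 PXR-deficient arrays (horizontal axis) of each tested probe in 8 gene lists and over all probes, with probes that passed the test in red, the others in grey and each median as a bar. The medians of the lists drawn run from -0.12 to 0.10, beside -0.03 over all probes, and the points farthest from 0 in these lists are Abca1 at -0.96 and Slco1b2 at 0.76.

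Against wild type livers 124 of the 236 probes differed (52.5%; limma, adjusted p under 0.05), 55 higher (23.3%) and 69 lower (29.2%) in PXR-deficient livers. Both this comparison and the effect against 0 use the same 6 PXR-deficient arrays. Of the 46 rises in PXR-deficient livers 36 were also higher than in wild type livers by this test, and of the 46 falls 35 were also lower. With arrays centred on the control probes there were 67 calls, 57 higher and 10 lower, and the median difference over all probes was 0.28 in place of 0.01. Without replicate 2 there were 104 calls, 101 of them shared in the same direction. Of the 64 probes described, 53 differed from wild type livers, and 42 of these kept the call without replicate 2. Of the calls in the 2 genotypes taken apart, 6 rises were shared (13.0% of the PXR-deficient and 12.0% of the wild type rises) and 9 falls (19.6% and 23.1%). In opposite directions, 14 PXR-deficient falls were wild type rises (30.4% and 28.0%) and 9 PXR-deficient rises were wild type falls (19.6% and 23.1%). Of all probes tested 21.2% were called higher and 16.5% lower in wild type livers, and 19.5% in each direction in PXR-deficient livers. Without replicate 2 there were 33 rises and 32 falls in PXR-deficient livers (14.0% and 13.6% of all probes). Of these, the falls that were wild type rises came down to 1. The shared falls were 13, the shared rises 5 and the rises that were wild type falls 5, with the wild type calls as before. The correlation of the mean log2 ratios across the 236 probes was 0.15, and 0.27 without replicate 2, over values that share the array layout and the dyes.

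Of the 3 other genotypes the CAR-deficient livers gave the highest correlation, 0.405 across the 236 probes and 0.489 without replicate 2. The response differed from theirs at 77 probes (32.6%; limma, adjusted p under 0.05), 34 higher (14.4%) and 43 lower (18.2%) in PXR-deficient livers. Whether the correlations differ from each other was not tested.

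Against livers deficient in both CAR and PXR the response differed at 98 of 236 probes (41.5%; limma, adjusted p under 0.05), 41 higher (17.4%) and 57 lower (24.2%) in PXR-deficient livers. Of the 46 rises in PXR-deficient livers, 15 fell in the doubly deficient livers (32.6% of the PXR-deficient rises and 53.6% of the falls in the doubly deficient) and 3 rose (6.52% and 12.0%). Of the 46 falls, 6 rose in the doubly deficient livers (13.0% of the PXR-deficient falls and 6 of the 25 rises in the doubly deficient) and 3 fell (6.52% and 10.7%). Of all probes 10.6% rose and 11.9% fell in the doubly deficient livers. Without replicate 2 there were 90 calls of a difference, 83 of them shared in the same direction, and 15 rises were still falls in the doubly deficient livers and 7 falls were rises there. These comparisons share the PXR-deficient arrays. Slco1b2 was at 0.76 ± 0.21 in PXR-deficient and -0.90 ± 0.18 in doubly deficient livers (SD, n = 6 each), with no overlap and a difference of 1.66 (limma, adjusted p = 1.16e-11). Abcc2 was at 0.40 ± 0.10 and -0.34 ± 0.12 (limma, adjusted p of the difference = 9.18e-09), and Cyp2a12 at 0.46 ± 0.22 and -0.30 ± 0.19 (limma, adjusted p of the difference = 1.56e-06), in the same order of genotypes. G6pc was at 0.65 ± 0.16 in PXR-deficient and -0.17 ± 0.24 in doubly deficient livers (SD, n = 6 each; limma, adjusted p of the difference = 0.00317).

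The widest differences lay at 7 probes that rose at least 2-fold in the doubly deficient livers, ST_Mm_277, ST_Mm_279, ST_Mm_280, ST_Mm_281, Fgb, ST_Mm_291 and ST_Mm_292. All 7 had means below 0 in PXR-deficient livers, and 6 were called lower there, with ST_Mm_277 at -0.79 ± 0.65 (SD, n = 6; limma, adjusted p = 0.0639). Without replicate 2 ST_Mm_277 was at -0.99 and passed (limma, adjusted p = 0.0464). ST_Mm_280 averaged -1.20 in PXR-deficient and 5.19 in doubly deficient livers, and Fgb -0.87 and 1.64 (limma, adjusted p of the differences = 4.22e-12 and 2.01e-11). The vehicle level of ST_Mm_280 was itself lower in the doubly deficient than in the PXR-deficient pool (values below). Its part in the difference was not tested. Across the 236 probes the mean log2 ratios of the 2 genotypes correlated at -0.55, and at -0.32 over the 229 probes other than these 7. These correlations were -0.64 and -0.33 without replicate 2. The labels give the same dyes for both genotypes, and the direction was kept.

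**Figure D5:**
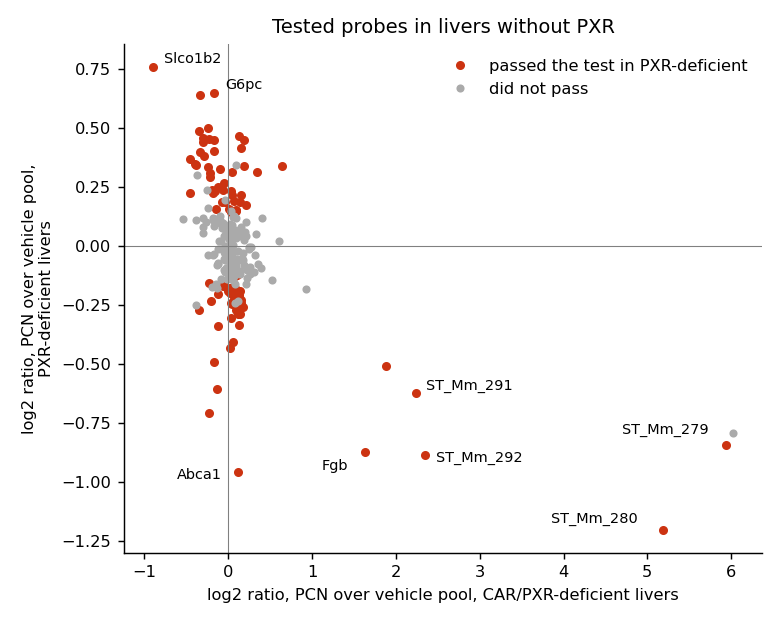
Mean log2 ratio in PXR-deficient livers (vertical axis) against that in CAR/PXR-deficient livers (horizontal axis) for the 236 probes, with probes that passed the test in PXR-deficient livers in red and the others in grey. The 7 probes at the right rose at least 2-fold in the doubly deficient livers and lie below 0 in PXR-deficient livers, and Slco1b2 lies at the upper left.

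The levels in each channel were also read. They are mean log2 intensities over 6 arrays after normalization between arrays, and the SD of a vehicle level is that of 6 hybridizations of 1 pool. For Cyp3a11 the level after PCN was 12.21 ± 0.38 in PXR-deficient and 14.18 ± 0.60 in wild type livers (SD, n = 6 each), and the vehicle level was 11.90 ± 0.45 and 11.24 ± 0.34. For Slco1b2 the level after PCN was 10.87 ± 0.59 in PXR-deficient and 10.68 ± 0.53 in wild type livers, and the vehicle level was 10.12 ± 0.47 and 10.77 ± 0.60. For G6pc the level after PCN was 8.47 ± 0.32 in PXR-deficient and 8.29 ± 0.43 in wild type livers, and the vehicle level was 7.82 ± 0.27 and 8.51 ± 0.51. At both genes the PXR-deficient pool had the lower mean vehicle level. For Abca1 the level after PCN was 8.95 ± 0.29 in PXR-deficient and 8.74 ± 0.25 in wild type livers, and the vehicle level was 9.91 ± 0.33 and 9.05 ± 0.20, so that here the PXR-deficient pool had the higher mean. For ST_Mm_280 the vehicle level was 12.63 ± 0.47 in PXR-deficient, 7.68 ± 0.43 in doubly deficient and 11.70 ± 0.40 in wild type livers. The doubly deficient pool thus had the lowest mean level of the genotypes named, and the level after PCN is not given here. With 1 pool per genotype, differences between vehicle levels were not tested, and neither was the part of the pool in these responses.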

How the data were processed

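Total RNA of PCN-treated livers (Cy5) and of a vehicle pool of the same genotype (Cy3) was hybridized to 2-colour spotted arrays of 1440 spots. Arrays were grouped by their titles. The deposited scanner tables hold spot intensity and local background per channel, the percent of pixels above background or saturated, and spot flags, per the file headers. No source used here names the scanner. The authors also deposited a processed value per probe, which followed log2 ratios computed from the scanner values (correlation 0.881 to 0.958 on the PXR-deficient arrays, medians -0.344 to 0.161). Its direction is therefore that of Cy5 over Cy3, while its log base, centring and normalization are not stated, and it served as an alternative.

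Intensities were corrected with normexp (offset 50), normalized by loess within arrays (span 0.3, 4 iterations) and averaged over the spots of a probe, with limma 3.58.1 in R 4.3.3. A probe was tested where, in either channel, 50% or more of its spots showed more than 50% of pixels above background plus 2 SD, on at least 50% of the arrays of 1 genotype. That left 236 of 284 probes, and 48 were not tested. One limma model over the 24 arrays, with a coefficient per genotype, gave the effect against 0 and the differences between genotypes, adjusted over the 236 probes by Benjamini-Hochberg with a threshold of 0.05. On simulated data this model recovered 75.2%, 95.5% and 99.8% of changes of 0.25, 0.5 and 1 on the log2 scale in the effect against 0, with 4.06% false calls. The simulated noise was normal and independent between probes and arrays, with the measured SD of each probe. It held no deviant array, dye effect or error of normalization. The shares recovered therefore do not carry over to these arrays, nor does the share of false calls to the 92 calls. Depth does not apply to arrays, and their number limits the precision.

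Symbols are those of the platform annotation, and 147 of 147 matched RefSeq. The text names the 10 largest rises and 10 largest falls that passed the test with 1 sign on at least 5 of 6 arrays, the members of the gene lists that passed, and those raised by 2-fold or more in wild type livers. The members and lists were chosen with earlier results of these data known, and the P450, nuclear receptor, transporter, glucose, acute phase and reference gene groups after the values were seen. Background correction, normalization, filters, weights, samples in the fit and each replicate were varied as alternatives. Same-numbered arrays of different genotypes did not deviate together (correlations -0.52 to 0.13), so that the numbers do not pair them.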

Additional observations from a re-analysis of the deposited data

Results flagged for a closer look

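Of the 64 described probes 20 had 1 PXR-deficient array far from the other 5 (its gap to the nearest array, as a share of the range, was above Dixon's 95% critical value), and in 19 of these it was replicate 2. Chance flags about 1 in 20 groups. Replicate 2 lay far below the others, with its log2 ratio in parentheses, at Abcb1a (-1.58), Ebp (-0.92), Mbtps1 (-0.15), Cyp1a1 (-0.73), Cyp2b13 (-0.55), Cyp46a1 (-0.61), Tbxas1 (-1.05), Cyp7a1 (-0.59), Ptgis (-0.67), Lss (-0.82), Mvk (-0.47), Thra (-0.62), Thrb (-0.90), Vdr (-0.71), Nr2c1 (-0.85), Nr2e1 (-0.85) and Nr5a1 (-1.02). It lay far above them at Ppargc1a probe ST_Mm_131 (0.23) and Actb probe ST_Mm_151 (0.37). Replicate 4 lay far below the others at ST_Mm_295 (0.15). As an array, replicate 2 also stood apart by its control-centred median log2 ratio of 1.15, its share of flagged spots of 11.8% and its mean correlation with the other arrays of 0.34.

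The response differed between PXR-deficient and wild type livers at 53 of the 64 described probes (limma, adjusted p under 0.05), against 52.5% of all probes tested. Most of the 64 were chosen by calls on these same PXR-deficient arrays or by their wild type rise. That choice fixes part of their higher share. Without replicate 2, 42 of the 53 kept the call. The 11 that lost it were Abcb11, Abcb1a, Ebp, Nr1i3, Cyp2b13, Cyp7a1, Cyp8b1, Vdr, Scarb1, Pdhb and Ppargc1a probe ST_Mm_320, of which Abcb11 (-0.29), Abcb1a (-0.19) and Vdr (-0.17) also moved by over 1.5-fold. Fgb (-0.40) and Actb probe ST_Mm_151 (-0.38) gained the call. The log2 difference, PXR-deficient minus wild type, over 6 arrays is in parentheses. It was positive at Slco1b2 (0.85), G6pc (0.87), ST_Mm_137 (0.56), ST_Mm_295 (0.50), Insig1 (0.69), Cyp2a12 (0.25), ST_Mm_314 (0.59), ST_Mm_220 (0.42), Nr1i3 (0.15), Abcc2 (0.30), Cyp27a1 (0.36), Cyp2d22 (0.49), Cyp2f2 (0.52), Cyp2j5 (0.62), Cyp8b1 (0.20), Fdft1 (0.42), Ppargc1a probe ST_Mm_131 (0.36), Pdhb (0.25), Ppp1r3c (0.72) and Ppargc1a probe ST_Mm_320 (0.47). It was negative at ST_Mm_051 (-1.23), Abca1 (-0.64), ST_Mm_292 (-0.79), Abcb11 (-0.46), ST_Mm_291 (-0.73), Abcb1a (-0.38), Ebp (-0.28), Cyp3a11 (-2.64), Cyp3a13 (-1.24), Cyp3a41a (-2.69), Mbtps1 (-1.01), Cyp17a1 (-0.29), Cyp1a1 (-0.42), Cyp2b13 (-0.22), Cyp2g1 (-0.30), Cyp46a1 (-0.40), Tbxas1 (-0.55), Cyp7a1 (-0.26), Ptgis (-0.40), Lss (-0.43), Mvk (-0.25), Thra (-0.39), Thrb (-0.44), Vdr (-0.28), Rxrb (-0.42), Nr2c1 (-0.51), Nr2e1 (-0.48), Nr5a1 (-0.55), Nr5a2 (-0.46), Scarb1 (-0.17), Actb probe ST_Mm_150 (-0.43), Gapdh probe ST_Mm_155 (-0.22) and Slco1a4 (-0.76).

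Of 5 probes with a human prefix, which enter no comparison, 1 was above background in both channels on 6 of 6 PXR-deficient arrays.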

How the results depend on the processing

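The count of 92 probes changed in PXR-deficient livers was 56 under median centring (37 higher, 19 lower), 42 under centring on the control probes (38 higher, 4 lower), 36 under that centring without replicate 2 (18 higher, 18 lower), 58 with the 6 PXR-deficient arrays alone (37 higher, 21 lower) and 60 with the deposited processed values (39 higher, 21 lower). For PXR-deficient minus wild type livers the 124 calls became 67 under centring on the control probes (57 higher, 10 lower) and 50 without replicate 2 in addition (36 higher, 14 lower). For PXR-deficient minus CAR/PXR-deficient livers the 98 calls became 61 under median centring (32 higher, 29 lower), 47 under centring on the control probes (31 higher, 16 lower, with a median difference over all probes of 0.24), 55 without replicate 2 in addition (27 higher, 28 lower), and 67 with the deposited processed values (41 higher, 26 lower). The cause of these shifts was not tested. Leaving out 1 array at a time gave 65 to 93 calls for the effect, 104 to 125 against wild type and 88 to 102 against CAR/PXR-deficient livers. With the replicate block the counts were 87, 120 and 92, and no array correlated best with its own number. Among the 64 described probes, 1161 results kept their side of the threshold and direction, 216 lost the call, 14 gained it and 15 changed sign. Of those with a changed sign, none had passed the test. Cyp3a13 was at 0.0167 with background subtraction, 0.00251 without background correction, 0.15 under median centring, 0.28 under centring on the control probes, 0.11 under that centring without replicate 2, 0.0408 with loess within print blocks, 0.0134 with array weights and 0.11 with the deposited processed values, and between -0.0229 and 0.0206 with 1 array left out. Mbtps1 and Nr1i2 were at -0.0342 and -0.0267 under centring on the control probes without replicate 2. Slco1a4 was at 0.0248 under centring on the control probes and between -0.0393 and 0.0224 with 1 array left out. The alternative with slide or scan date as a block was not run, since no such field was used here. Each genotype has 1 vehicle pool and no dye swap. Signal over background limits Slco1a4, the 48 probes not tested and some of those tested. Of the 92 called probes, 81 were above background in both channels on 6 of 6 PXR-deficient arrays. Among the probes tested, 4 were above background in Cy5 on none of these arrays, and 2 in Cy3 on none.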
